A study of Drosophila melanogaster with 12 samples.

Results

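The 6 actin genes of Drosophila melanogaster, Act5C, Act42A, Act57B, Act79B, Act87E and Act88F, were followed through the RNA polymerase II (Pol II) peak lists of Kc167 cells. They were chosen by symbol in the Ensembl annotation of the BDGP6 assembly, and make up 6 of the 13968 protein-coding genes and of the 18277 genes in all. The study asked whether AGO2, an Argonaute protein best known from small RNA pathways, affects Pol II on genes, and used depletion of LaminB, a protein of the nuclear lamina, as its comparison. Chromatin was immunoprecipitated with an antibody to Pol II S5, polymerase whose C-terminal repeats are phosphorylated at Serine 5, the form enriched at promoters and early in elongation. Kc167 is an established female line of embryonic origin, and hemocyte genes are expressed in it. All cells were transfected and were collected 3 days later. Mock cells received no RNA, AGO2 KD cells an siRNA against AGO2 and LaminB KD cells a dsRNA against LaminB. Each group had 2 replicate libraries, each with a paired input library that served in peak calling and has no values of its own here. The labels do not say whether replicates came from separate cultures, so the spread between them may be technical.

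Actin is the subunit of the thin filaments of muscle and of the microfilaments that give every cell its shape and let it move and divide. In flies, Act5C and Act42A encode the cytoplasmic actins used by all cells, whereas Act57B, Act79B, Act87E and Act88F encode actins of muscle, with Act88F best known from the indirect flight muscles. Monomers are folded by the CCT chaperonin, held by profilin and cofilin, assembled by the Arp2/3 complex and formins, and pulled on by myosin.

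The 6 genes lie apart from each other, on the X, the left arm of chromosome 3 and the right arms of chromosomes 2 and 3 in the dm6 build. Act5C (FBgn0000042) spans X:5900861-5905399 on the plus strand, 4539 bp with 5 transcripts that begin at 2 starts, a distal one at 5900861 and a proximal one at 5901982. Act42A (FBgn0000043) spans 2R:6013910-6015689 on the minus strand, 1780 bp with 1 transcript. Of the muscle genes, Act57B (FBgn0000044) spans 2R:20944021-20946431, Act79B (FBgn0000045) 3L:21985210-21987190, Act87E (FBgn0000046) 3R:13425983-13428375 and Act88F (FBgn0000047) 3R:15439969-15442177, all on the plus strand. Act87E has 2 annotated starts, at 13425983 and 13426447. All 6 genes encode a protein of 376 residues from 1128 coding bases. The proteins of Act5C and Act42A differed at 2 residues (99.5% identical), although their coding bases were only 86.2% identical. A cytoplasmic and a muscle protein differed at 12 to 18 residues (95.2% to 96.8% identical), and muscle proteins differed among themselves at 3 to 13.

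Near-identical genes can share short reads, so every 50-base stretch of each gene was searched for elsewhere in the genome. Such stretches made up 1.18% of Act5C (53 of 4490), 2.60% of Act87E (61 of 2344), 0.593% of Act57B, 0.463% of Act88F, 0.0518% of Act79B and none of Act42A (0 of 1731). All lay within coding sequence, and none fell in the 1500 bp upstream of any of the 6 genes. By exact match, a read of that length from almost any position in these genes could therefore be placed.

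The promoters differ in sequence more than the proteins do, and those below were chosen to contrast both Act5C starts with a pair of muscle promoters. Each line gives the 200 bases before the transcription start, 5′ to 3′ in the direction of the gene, from the RefSeq copy of the same assembly, all on the plus strand. Capitals mark a match to TATAAA (the TATA box), GAGAG (GAGA factor), TCAGT (the initiator core), TATCGATA (the DNA replication-related element), the CArG box of serum response factor or the MEF2 site, on either strand.
Act5C distal start, chrX:5900661-5900860: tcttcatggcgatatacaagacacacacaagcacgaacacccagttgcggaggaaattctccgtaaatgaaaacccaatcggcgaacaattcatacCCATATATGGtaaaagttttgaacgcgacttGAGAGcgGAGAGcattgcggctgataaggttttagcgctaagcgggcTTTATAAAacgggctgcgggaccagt
Act5C proximal start, chrX:5901782-5901981: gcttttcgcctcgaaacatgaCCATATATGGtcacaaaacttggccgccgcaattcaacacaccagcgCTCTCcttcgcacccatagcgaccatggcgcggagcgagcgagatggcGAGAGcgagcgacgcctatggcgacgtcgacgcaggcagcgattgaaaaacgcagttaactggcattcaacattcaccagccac
Act87E first start, chr3R:13425783-13425982: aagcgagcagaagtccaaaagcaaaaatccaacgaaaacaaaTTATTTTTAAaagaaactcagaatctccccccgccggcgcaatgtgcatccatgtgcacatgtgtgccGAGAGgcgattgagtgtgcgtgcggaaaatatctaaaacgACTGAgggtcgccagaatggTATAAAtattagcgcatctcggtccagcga
Act88F, chr3R:15439769-15439968: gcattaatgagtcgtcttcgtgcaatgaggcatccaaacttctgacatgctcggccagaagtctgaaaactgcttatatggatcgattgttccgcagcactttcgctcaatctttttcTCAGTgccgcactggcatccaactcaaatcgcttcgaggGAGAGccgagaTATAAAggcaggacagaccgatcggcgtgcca

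Positions are counted from the start, and the window searched ran from 250 bp before it to 50 bp after it. Both Act5C starts held a CArG box, beginning at -104 for the distal and -179 for the proximal start, and no muscle actin start held one. The CArG box is bound by serum response factor, whose coactivator senses free actin in vertebrates, and it occurred in 193 of 13960 promoters of protein-coding genes (1.38%). The distal Act5C start had TATAAA at -24, overlapped by a match on the other strand, and the proximal start had none. GAGAG lay at -73 and -66 of the distal start and at 7 places, some overlapping, of the proximal start. Act42A, whose letters are not printed, had GAGAG at -110 and TCAGT at -149, and neither TATAAA nor a CArG box. TATAAA lay at -26 in Act57B, -30 in Act87E and -32 in Act88F. Act79B had no match to any of the 6 motifs. The MEF2 site, bound by the muscle regulator Mef2, was matched at -202 of Act57B, at -158 of the first Act87E start, and at -130 and -63 of the second. These motifs are not rare, apart from the CArG box: TATAAA was found in 45.8% of promoters, GAGAG in 29.7%, TCAGT in 51.5%, the MEF2 site in 14.5% and TATCGATA, matched in no actin promoter, in 9.36%. A match describes letters only and does not show that a factor binds.

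The data are 1 list of broad peaks for each of the 6 immunoprecipitated libraries, called for each replicate against its input. The lists held 5108 to 8541 peaks covering 4.19 to 14.6 Mb, both ends being LaminB KD libraries, with replicate 1 the longest list and replicate 2 the shortest. AGO2 KD covered 5.57 and 8.01 Mb and mock 8.27 and 10.5 Mb. RNA interference acts on the transcript, so Pol II peaks give no check of the knockdowns, which the study checked by Western blotting. No list was scaled to another, and read depth is unknown. Weaker regions are not listed, since the largest q-value in a list was between 0.0911 and 0.0999. A gene without a peak is therefore one where Pol II S5 was not detectable above that limit, and fewer cells with polymerase there and less polymerase per cell cannot be told apart. For each gene the covered share was computed, meaning the part of its length that lay under peaks, in percent, together with whether a peak lay within 1500 bp of an annotated start.

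Both cytoplasmic actin genes were under Pol II S5 peaks in all 6 libraries, and none of the 4 muscle actin genes was in any. Act5C, whose promoter drives many expression vectors for fly cells, had a covered share of 93.7% and 93.4% (mock), 92.5% and 92.8% (AGO2 KD) and 95.0% and 92.1% (LaminB KD). These shares were 4182 to 4311 of its 4539 bp. The libraries therefore lay within 3 points of each other, with both extremes in LaminB KD. Here and in what follows, paired values are replicate 1 and then replicate 2. Act42A had a covered share of 100% in each of the 6 libraries. Act57B, Act79B, Act87E and Act88F each had a covered share of 0 in each of the 6. The split by library is shown in the plot of covered share, where the only gene with any spread is Act5C.

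**Figure D1:**
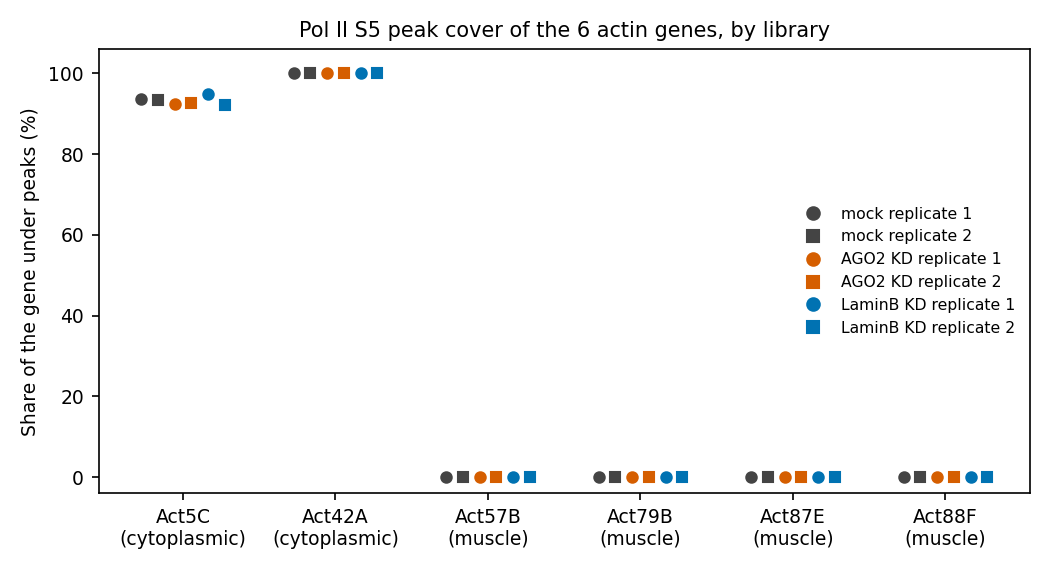
Percentage of the length of each actin gene under Pol II S5 peaks (vertical axis) in each of the 6 libraries (points, by group and replicate). Act42A sits at 100% and Act5C between 92.1% and 95.0%, while the 4 muscle genes sit at 0 in every library.

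Promoter peaks divided the genes in the same way. Act5C and Act42A had a peak within 1500 bp of a start in 6 of 6 libraries, at both starts in the case of Act5C, and each muscle gene had one in 0 of 6. Among all protein-coding genes, 45.4% had a promoter peak in all 6 libraries, or 6347 of 13968, so this alone did not set the cytoplasmic genes apart. Having no base under a peak in any library was likewise common, at 43.4%, the class of all 4 muscle genes. Cover of the whole gene in all 6 libraries, which Act42A had, was found for only 259 genes (1.85%). Within each library, 85.4% to 97.0% of protein-coding genes had a lower covered share than Act5C, and 86.7% to 97.9% had a lower one than Act42A. Short genes are more easily covered whole, and length was not adjusted for.

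The mean covered share of the 2 cytoplasmic genes exceeded that of the 4 muscle genes by 96.8 and 96.7 points (mock), 96.3 and 96.4 points (AGO2 KD) and 97.5 and 96.1 points (LaminB KD). Over the 6 libraries this was 96.6 ± 0.509 points (SD, n = 6). The value has no test, being a mean over chosen genes, and 6 libraries of one line are not 6 cell types.

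The peak over Act5C was one of the widest in every list. It measured 5813 and 5832 bp (mock), 5693 and 5754 bp (AGO2 KD) and 5943 and 4305 bp (LaminB KD). It was wider than 98.5% and 97.4% of the peaks in the mock lists, 99.5% and 98.7% in those of AGO2 KD, and 95.0% and 99.1% in those of LaminB KD. In 5 libraries the peak began 1493 to 1632 bp before the distal start. In LaminB KD replicate 2, the library with the shortest list, it began only 123 bp before that start. The upstream flank was what set this library apart: 8.2% of the 1500 bp before the distal start lay under the peak there, against 99.5% to 100% in the other libraries. That replicate 2 had the smallest cover of any list was seen together with this short flank, and its part in it was not tested.

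At the other end, the Act5C peak stopped inside the long 3′ region that its transcripts share in part. Annotated transcript ends lie at 5904173, 5904464, 5904788, 5905227 and 5905399. The peak ended at 5905112 and 5905101 (mock), 5905060 and 5905071 (AGO2 KD) and 5905171 and 5905042 (LaminB KD). All 6 ends thus fell in the same interval, 254 to 383 bp past the transcript end at 5904788 and 56 to 185 bp before the one at 5905227. The whole coding sequence and all introns of Act5C were covered in every library. The stretch after the stop codon, 1571 bp, was covered to 81.7% and 81.0% (mock), 78.4% and 79.1% (AGO2 KD) and 85.5% and 77.3% (LaminB KD). All variation in the covered share of Act5C came from this stretch.

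**Figure D2:**
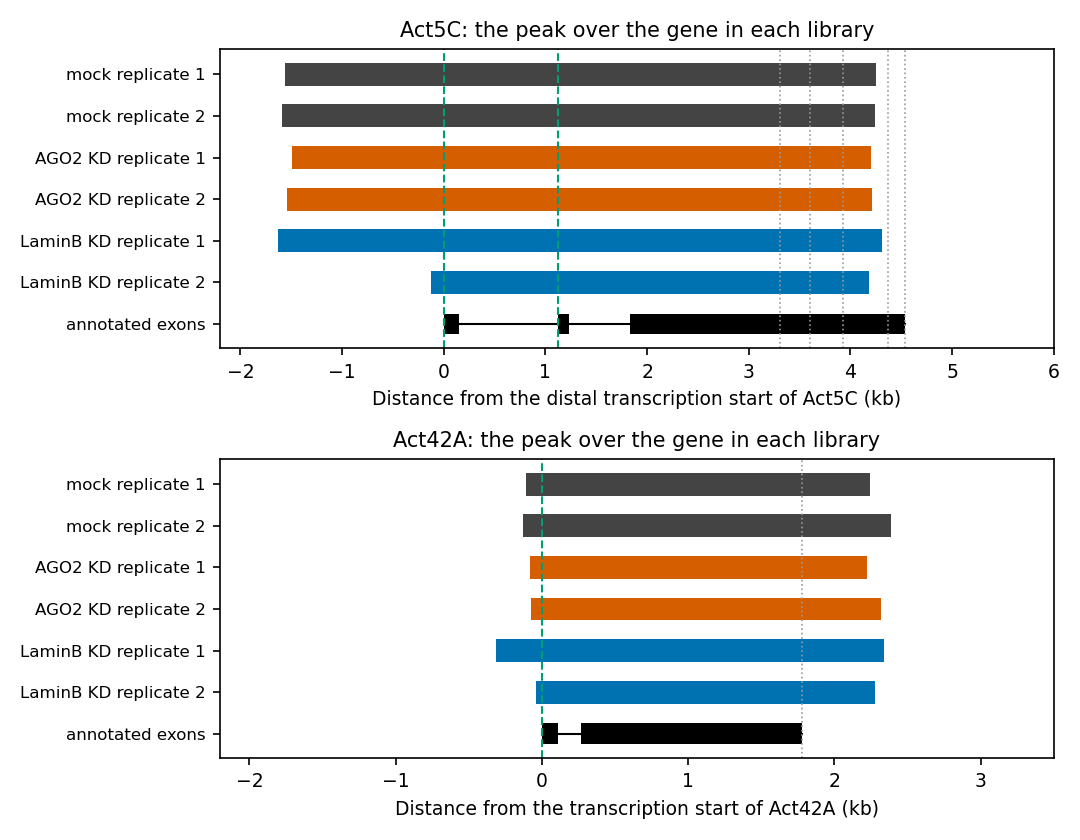
The peak of each library (bars) over Act5C (upper panel) and Act42A (lower panel), drawn to scale in kb from the start in the direction of the gene, with exons in black, starts as dashed lines and transcript ends as dotted lines. A single peak spans each gene in all 6 libraries, and the Act5C peak of LaminB KD replicate 2 lacks the upstream flank.

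Act42A carried a narrower peak that ran past both ends of the gene. It measured 2351 and 2513 bp (mock), 2306 and 2390 bp (AGO2 KD) and 2653 and 2314 bp (LaminB KD). The peak reached 109 and 127 bp upstream of the start (mock), 81 and 71 bp (AGO2 KD) and 314 and 37 bp (LaminB KD). Past the 3′ end it ran on for 445 to 606 bp in the 6 libraries. Unlike the Act5C peak, it therefore extended further downstream than upstream in every library. It was wider than 80.0% to 93.7% of the peaks of its list.

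The wider Act5C peak was not the stronger one in most libraries. The fold, the ratio of read pileup to local background averaged over the peak, was 4.26 and 4.60 for Act5C (mock), 5.15 and 4.14 (AGO2 KD) and 8.14 and 2.40 (LaminB KD). For Act42A it was 4.46 and 4.80 (mock), 5.34 and 5.32 (AGO2 KD) and 6.0 and 2.84 (LaminB KD). Act42A thus had the higher fold in every library but LaminB KD replicate 1. The median fold of all peaks was 2.81 to 4.07 across lists. Both genes were above the median of their own list in 5 libraries and below it in LaminB KD replicate 2. There, only 1.14% of peaks had a lower fold than Act5C and 14.2% a lower one than Act42A. In LaminB KD replicate 1 those shares were 98.4% and 91.8%, so the replicates of LaminB KD gave the highest and the lowest standing of Act5C. Among peaks of at least 2 kb, 0.231% of 432 had a lower fold than Act5C in LaminB KD replicate 2, against 70.3% to 99.3% in the other libraries.

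The significance of the peaks varied more widely than their fold. The −log10 q-value of the Act5C peak was 16.2 and 29.1 (mock), 13.8 and 17.6 (AGO2 KD) and 104 and 2.38 (LaminB KD). For Act42A it was 12.5 and 20.0 (mock), 9.21 and 14.2 (AGO2 KD) and 47.2 and 2.33 (LaminB KD). In LaminB KD replicate 2 both peaks had a score of 23, and 36.9% of the peaks of that list scored lower. In the other 5 libraries 93.2% to 99.9% of peaks scored lower than Act5C and 80.6% to 93.2% lower than Act42A.

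**Figure D3:**
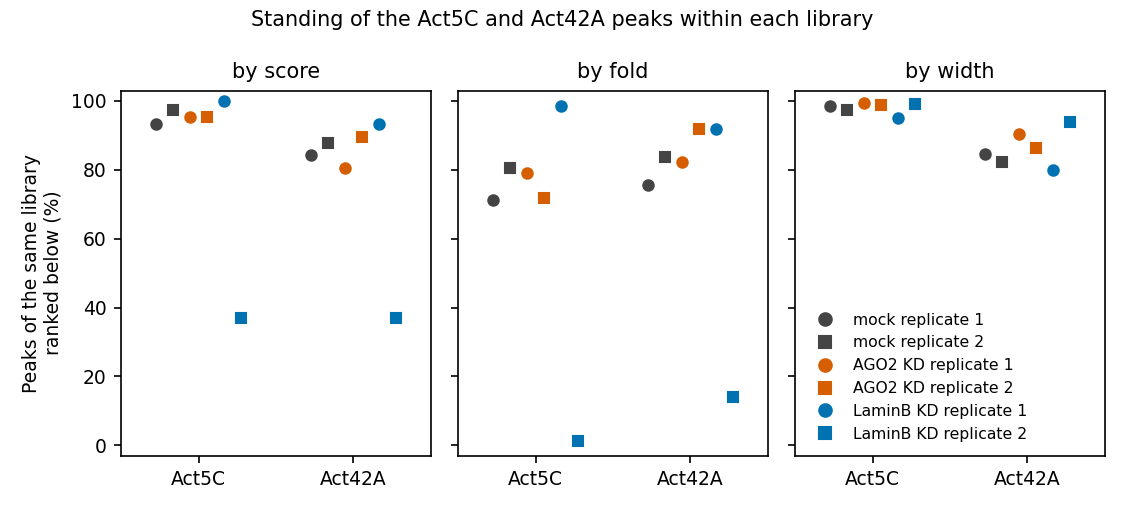
Percentage of the peaks of the same library that ranked below the Act5C and the Act42A peak (vertical axis), by score, by fold and by width, with 1 point per library. LaminB KD replicate 2 sits at 36.9% by score and at 1.14% and 14.2% by fold, far below the other 5 libraries, but not by width.

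The next comparison asked whether depletion of AGO2 changed Pol II S5 cover on the actin genes. Only Act5C could have moved either way, since Act42A was at the ceiling and the muscle genes at 0. In AGO2 KD 92.7% ± 0.171 of it was covered, against 93.6% ± 0.171 in mock (SD, n = 2 each), a difference of -0.903 points, or of -1.38 points over exons only. Both AGO2 KD libraries lay below both mock libraries, with 0.661 points between the nearest. The exact two-sided permutation test gave p = 0.333, the smallest value that 2 libraries against 2 can give, so no such comparison could pass 0.05. By non-overlap 1 of the 6 actin genes was lower in AGO2 KD and 0 were higher, against 23.8% of all protein-coding genes lower and 0.251% higher. A gene lower in both AGO2 KD lists was therefore common, and these lists also covered less of the genome than the mock lists. The share is one of unscaled peak cover, not of Pol II S5 amount. With its count-based test, the study reported Pol II S5 gained at some genes up-regulated after AGO2 depletion. It reported Pol II S5 lost at some down-regulated genes.

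The Act5C peak was narrower in AGO2 KD at both edges. Its width was 5723.5 ± 43.1 bp in AGO2 KD, against 5822.5 ± 13.4 bp in mock (SD, n = 2 each; exact permutation p = 0.333), a difference of -99 bp. The mean difference was -58 bp in upstream reach and -41 bp in downstream reach, and the groups did not overlap at either edge. The share of all genes whose peaks narrowed in the same way was not computed. Peaks in general were narrower in AGO2 KD, with a mean width of 1007 and 1207 bp, against 1286 and 1465 bp in mock. The narrower Act5C peak is therefore not read as particular to this gene. The fold of Act5C overlapped between the groups, at 4.65 ± 0.716 and 4.43 ± 0.240 (n = 2 each, exact permutation p = 1).

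At Act42A the fold was higher in AGO2 KD, at 5.33 ± 0.0124 against 4.63 ± 0.243 in mock (SD, n = 2 each), a difference of 0.697 with an exact permutation p = 0.333. Both AGO2 KD libraries lay above both mock libraries, as they did for 20.2% of the 5340 genes with peaks in all 6 libraries. The standing of the Act42A peak within its own list overlapped between the groups (exact permutation p = 0.667, n = 2 each). Its width overlapped as well, with a difference of -84 bp (exact permutation p = 0.667, n = 2 each), while its upstream reach was shorter in both AGO2 KD libraries by a mean difference of -42 bp. For upstream reach, too, the share over all genes was not computed.

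The LaminB comparison asked whether another depletion changed the same genes. The covered share of Act5C was 93.6% ± 2.01 in LaminB KD against 93.6% ± 0.171 in mock (SD, n = 2 each, exact permutation p = 1), and both mock libraries lay between the LaminB KD libraries. By non-overlap 0 of the 6 genes were lower and 0 higher, where 1.30% of protein-coding genes were lower and 0.158% higher. Width and fold of both peaks overlapped between LaminB KD and mock. With a spread of 2.01 points between its replicates, a difference of the size seen for AGO2 KD would not have been detectable. Whether the effects of both depletions differ was not tested.

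For the muscle genes, the distance to the nearest peak was measured. The nearest peak to Act57B lay 30491 to 30559 bp away in 5 libraries and 47675 bp away in LaminB KD replicate 2. For Act79B it was 29667 to 29872 bp away and for Act88F 22230 to 28527 bp. Act87E lay closest to a peak, 6075 to 6420 bp in 5 libraries and 3589 bp in LaminB KD replicate 1. No peak thus reached the promoter window of a muscle actin gene in any library. The genes beside them differed. P5CS, 604 bp from Act79B, had 0 in all 6 libraries, AdamTS-A, 69 bp from Act88F, had 0.501% to 1.90%, and yrt, 492 bp from Act87E, had 2.71% to 17.2%. AdamTS-A and yrt each had a peak at their own promoter in all 6 libraries. The antisense lncRNA:CR45591, which overlaps Act87E by 196 bp, and a snoRNA gene that lies inside Act57B had 0 in all 6.

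Around the cytoplasmic genes, the next peaks were separate. The gap from the Act5C peak to the next one downstream was 2776 to 2994 bp, and from the Act42A peak it was 1617 to 1950 bp on the nearer side. lncRNA:CR45668 starts 872 bp from the distal start of Act5C on the other strand, and the upstream flank of the Act5C peak ran into it in 5 libraries. The covered share of lncRNA:CR45668 was 6.53% and 8.49% (mock), 3.55% and 6.68% (AGO2 KD) and 9.02% and 0 (LaminB KD). That share was not all flank. In both mock libraries, AGO2 KD replicate 2 and LaminB KD replicate 1, a separate peak inside the gene lay 7178 to 7316 bp upstream of the Act5C peak. In AGO2 KD replicate 1 the next peak on that side was 19749 bp away, outside the gene, so only the flank counted. Peaks carry no strand, so polymerase of Act5C and of this divergent transcript cannot be told apart in the flank. CG4020, 347 bp downstream of Act5C, had at most 2.44%. Pngl, 2050 bp from Act42A, had 50.2% and 50.4% (mock), 16.6% and 45.6% (AGO2 KD) and 54.5% and 13.8% (LaminB KD).

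The genes that work with actin were counted by role. All 97 genes of 10 lists were found in the annotation. Those of general actin use had promoter peaks nearly throughout, against 45.4% of all protein-coding genes. Of 9 genes that bind monomers or turn filaments over, 8 had a promoter peak in all 6 libraries, with a median mock covered share of 59.4%. tsr, the fly cofilin, had 100% in mock and flr, which aids cofilin, 91.0%, while LIMK1, the kinase that inhibits cofilin, had 6.36% and Gel, a gelsolin, 10.2%. chic, the fly profilin, had 71.2%. Of 17 genes for nucleation and elongation 16 had a promoter peak in all 6 libraries (median covered share 19.3%). Arpc1 (1801 bp) and Arpc4 (780 bp) of the Arp2/3 complex had 100%, and the nucleators spir (37168 bp) and capu (30215 bp) had 0.752% and 0. Gene length, which differed this widely, was not adjusted for in any list. A narrow peak fills little of a long gene, so covered shares do not rank roles by Pol II S5.

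Capping, bundling and cross-linking genes had such a peak in 10 of 10 cases, from cpa (100%) and cpb (75.0%), the capping protein subunits, to Fim (3.22%), a fimbrin, and tmod (1.37%), a tropomodulin. All 8 CCT subunit genes had one, and they were the most covered list, with a median of 100%. CCT2, the least covered, had 90.8% and CCT4 91.3%, and the other 6 had 100%. Of 7 actin-related proteins 6 had one, with a median of 95.9%. Arp6, Arp8 and Bap55 had 100% and Arp1, of dynactin, 55%, while Arp53D, known from the germline, had 0 in every library although a peak lay near its start. The list for actin-responsive transcription held bs (the serum response factor), Mical and Mrtf. All 3 had promoter peaks in every library but covered shares of 3.27%, 1.18% and 0.378%. Across all protein-coding genes the median covered share was 0.894%. Lengths differed here too, from 2147 to 4671 bp for the CCT genes to 46299 bp for tmod. bs, Mical and Mrtf measured 33613 to 48922 bp.

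Most contractile genes, like the muscle actins, had no cover, but some had promoter peaks. Of 22 genes of the contractile apparatus, 18 had a covered share of 0 in all 6 libraries, beside 43.4% of all protein-coding genes, among them Mhc, the muscle myosin heavy chain, and Tm2, a tropomyosin. The highest mock values were 6.68% for Mlc2, a myosin light chain, and 6.42% for Zasp66, a Z-disc protein. Only fln, flightin, had a promoter peak in all 6 libraries, beside 45.4% of all protein-coding genes, with no base of fln itself covered. Mlc2 and TpnC73F had one in 5 libraries, with no base of TpnC73F covered, and wupA in 4. Of the 22, 15 had none in any library, beside 5430 of the 13968 protein-coding genes. Among the muscle regulators bap and nau had 0, twi had 1.33% with no promoter peak, and Mef2 had 2.86% with a promoter peak in all 6 libraries. Hemocyte markers were mixed. Of the 12, 8 had a promoter peak in all 6 libraries and 3 had none in any, beside 45.4% of all protein-coding genes with one in all 6. srp, the GATA factor of hemocytes, had 51.4% and its cofactor ush 24.6%. He, NimC1 and eater had 0 in all 6 libraries, with no promoter peak in any. Hml had 21.6%, crq 4.27% and Pxn 3.39%, each with a promoter peak in all 6 libraries. Of 5 neuronal markers nSyb, Syt1 and Rdl had 0 in mock, and elav had 6.13% and brp 0.224%. A promoter peak lay at nSyb in all 6 libraries and at elav in 5, and the other 3 had none. No base of nSyb was covered in any library, so the peak in its window lay off the gene and may belong to a neighbour.

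**Figure D4:**
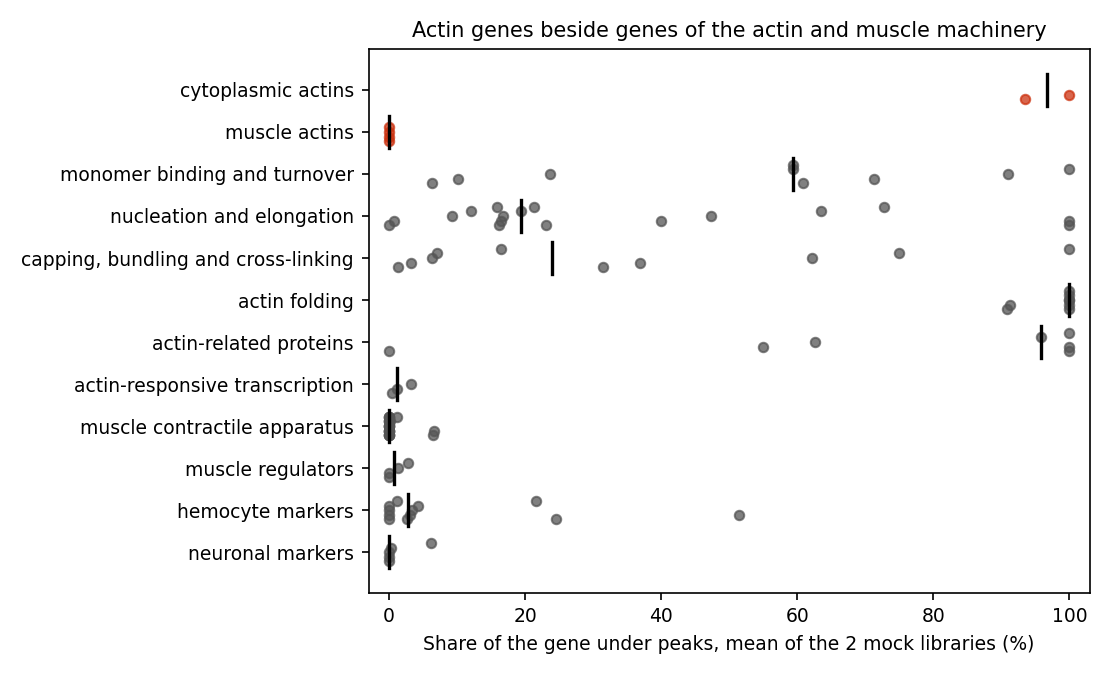
Covered share of each gene (horizontal axis, percent, mean of both mock libraries) for the actin genes (red) and the 10 lists of genes grouped by role (grey), with the median of each row as a black bar. The CCT genes have a median of 100%, and 18 of the 22 contractile genes lie at 0. Gene length was not adjusted for.

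By non-overlap 34 of the 97 listed genes were lower in AGO2 KD than in mock and 0 were higher, to be read against 23.8% and 0.251% of all protein-coding genes. The count was 8 of 17 for nucleation, 6 of 10 for capping and bundling, 3 of 9 for monomer binding, 3 of 8 for CCT, 2 of 22 for the contractile genes and 7 of 12 for the hemocyte markers. It was 3 of 7 for actin-related proteins, 1 of 3 for actin-responsive transcription, 1 of 4 for muscle regulators and 0 of 5 for neuronal markers. chic was among them, with 71.4% and 71.1% in mock and 57.2% and 60.9% in AGO2 KD. In LaminB KD 2 listed genes were lower, HSPC300 and the hemocyte receptor gene crq, and 1, Abi, was higher, beside 1.30% and 0.158% of all protein-coding genes. Abi had 17.9% and 20.8% in mock and 74.0% and 21.1% in LaminB KD, so that replicate 2 lay only just above mock. Genes at 0 or 100% throughout can count in neither direction, so lists of fully covered or of uncovered genes have fewer that could move. Genes with no base under a peak in any library made up 43.4% of all protein-coding genes, but 27 of the 97 listed ones. The listed counts and the 23.8% are therefore not like for like, and no excess is read from them.

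The genes whose cover was most like that of Act5C over the 6 libraries, by Euclidean distance among 13952 protein-coding genes more than 5 kb from any actin gene, were Nop56 (2.15 points), Stt3A (2.58 points) and HBS1 (2.83 points). Nop56, a component of box C/D ribonucleoproteins, ran from 91.9% to 96.9%. Act42A was tied with 258 genes at a distance of 0, all covered whole in each library.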

How the data were processed

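Pol II S5 ChIP-seq peak lists of 6 Kc167 libraries were used; 6 input libraries have no list. The authors trimmed reads with cutadapt, aligned them to dm6 with Bowtie2, removed multimapping reads, removed duplicates with Picard and called broad peaks with MACS2 per replicate against its input. The submitters' processing notes give cutadapt 1.10, Picard 2.11.0 and MACS2 2.1.1.20160309, and the methods of the study name other versions of cutadapt and Picard. The authors deposited for each region a score (10 times −log10 q, truncated), a fold over local background, and −log10 p-values and q-values, all averaged over the region. More reads or a cleaner immunoprecipitation give more and wider regions. The lists were compared without scaling, so differences of that kind remain in every comparison. Depth is unknown, and no interval was computed from it.

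Genes came from Ensembl BDGP6 (release 115). Covered share is the percentage of gene length under peaks. Promoter peaks overlapped a window of 1500 bp to either side of an annotated start by at least 1 bp. Such a peak need not touch the gene and may belong to a neighbour. Exact two-sided permutation was used to compare group means of 2 libraries against 2 (smallest p 0.333), which measures only the spread between these libraries. A gene was called lower or higher where the groups did not overlap. Peak lists hold no read counts, so the count-based test of the study was not run. Coverage code was tested on simulated data. Upper 50% of peaks by score, an equal peak number (5108), merging of peaks within 500 bp, gene bodies from 500 bp, exons only, other promoter windows, left-out replicates and a replicate block were tried. From each list of related genes, the 2 with the highest and the 2 with the lowest mock covered share were named, with all ties at 100% and examples of ties at 0, and genes called higher in a knockdown. The members and lists were chosen with earlier results of these data known. chic, Mhc, Tm2, HSPC300, crq, Hml and Pxn were named after their values were seen, as were TpnC73F and wupA. A further list of genes is not reported here.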

Additional observations from a re-analysis of the deposited data

How the results depend on the processing

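Of 191 alternative values computed for 23 results, 181 kept the direction and call, or stayed within the replicate spread or within 1.5 times a count. The other 10 were labelled as moved and 0 as reversed. Among the 10, the left-out differences for Act5C in LaminB KD minus mock were smaller than the SD of 2.01 points between LaminB KD replicates. Their main value was 0, which has no direction to reverse. Many of the 181 could not have changed. Fewer peaks, other gene parts, stricter promoter rules or left-out libraries cannot add cover to the muscle actin genes, which had none. Merging peaks within 500 bp could not reach them, since their nearest peak lay at least 3589 bp away. Act42A, covered whole in every library, could change only where peaks were dropped. The count of 181 is therefore not read as a measure of robustness. With only the upper 50% of peaks by score, both cytoplasmic peaks of LaminB KD replicate 2 dropped out, which put LaminB KD minus mock at -46.1 points for Act5C and at -50.0 points for Act42A, and the cytoplasmic minus muscle difference at 80.6 points. Their promoter peaks were then found in 5 libraries in place of 6. Counting exons only gave 94.9 points for the cytoplasmic minus muscle difference and -1.38 points, in place of -0.903, for Act5C in AGO2 KD minus mock. Leaving out 1 library at a time gave LaminB KD minus mock for Act5C between -1.42 and 1.42 points. It gave 0 to 1 actin genes lower in LaminB KD, the 1 being Act5C without LaminB KD replicate 1, and 0 to 1 higher, the 1 being Act5C without LaminB KD replicate 2. For Act5C in AGO2 KD the difference stayed between -1.02 and -0.782 points without any single library.

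Groups share replicate numbers but the labels do not say that a number marks a shared batch. With the replicate block, AGO2 KD minus mock for Act5C was -0.903 points with an exact permutation p of 0.5, the smallest that 2 pairs can give. Deviations of replicate 1 correlated at 0.221 between AGO2 KD and mock and at -0.372 between LaminB KD and mock over 7904 genes. Depth is unknown, so the weak peaks of LaminB KD replicate 2 cannot be set against its reads.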
